A study of Mus musculus with 6 samples.

Results

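Adipokines are proteins that fat tissue secretes. The 10 genes Lep, Adipoq, Retn, Cfd, Rbp4, Nampt, Apln, Metrnl, Rarres2 and Nnat were chosen by name from a table of 55039 genes, and all 10 passed the filter on low counts. Of these, 9 encode proteins found outside cells and the tenth, Nnat, encodes neuronatin, a small membrane protein of the endoplasmic reticulum that is grouped here with them. RNA sequencing of epididymal white adipose tissue (eWAT) was done in male C57BL/6 mice that were 6 to 7 weeks old when assigned. The CAC group (cancer-associated cachexia) received Lewis lung carcinoma (LLC) cells under the skin of the lower back, the CONT group received PBS alone, and eWAT was taken from both after 28 days. Each group held 3 mice with 1 library per mouse, and LLC is a single transplanted mouse tumor line. The question was which genes of fat tissue differ between tumor-bearing and control mice.

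Libraries held 15713794 to 25926425 counts. CONT replicate 1 stood apart, with 30.2% of counts from mitochondrial genes against 3.89% to 5.04% in the other libraries, and with a spread of log2 ratios to the other CONT libraries of 0.832 and 0.872 against 0.297 between those 2. CAC replicate 1 lay about as near to CONT replicate 3 (0.493) as to CAC replicate 2 (0.537), over the same 5779 genes. Members whose result rests on either library are therefore given with and without it. Fat markers were abundant in every library: the summed level of 15 adipocyte markers was 57490, 29193 and 33202 CPM (counts scaled to an equal library size) in CONT replicates 1, 2 and 3 and 57076, 25972 and 28008 CPM in CAC replicates 1, 2 and 3. By this sum CAC replicates 2 and 3 were below every CONT library, and CAC replicate 1 was inside the CONT range. The sum leans on its most abundant genes: Fabp4 alone was at 22460, 6182 and 7283 CPM in CONT and 13836, 3233 and 3750 CPM in CAC. Of the 15 markers, 2 were higher and 0 were lower in CAC at an unadjusted p under 0.05 by edgeR.

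Leptin, the product of Lep, signals the size of the fat stores to the brain and acts through the receptor Lepr and the transcription factor STAT3. Adiponectin (Adipoq) acts on Adipor1, Adipor2 and T-cadherin, and its blood level is high in lean animals, whereas resistin (Retn) and adipsin (Cfd, complement factor D) are major secreted products of mouse adipocytes. Retinol binding protein 4 (Rbp4) carries vitamin A, chemerin (Rarres2) attracts immune cells, apelin (Apln) acts on vessels, meteorin-like (Metrnl) is released by fat and muscle, and Nampt makes the NAD precursor nicotinamide mononucleotide.

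The promoter sequences of 4 members are shown because they stand for the patterns described next: Nnat was the gene closest in pattern to Lep, Apln was low in every CAC library, and Adipoq was kept in every CAC library. Each is the 250 bases before the start of the gene in RefSeq (build GRCm38.p6), read 5′ to 3′ on the strand of the gene. Capitals mark matches to a core of C/EBP sites (TTNNGNAA) or to a GC box (GGGCGG), on either strand. Lep is at chr6:29059971-29060220 on the plus strand, Nnat at chr2:157559828-157560077 on the plus strand, Apln at chrX:48034854-48035103 on the minus strand and Adipoq at chr16:23146286-23146535 on the plus strand.
Lep: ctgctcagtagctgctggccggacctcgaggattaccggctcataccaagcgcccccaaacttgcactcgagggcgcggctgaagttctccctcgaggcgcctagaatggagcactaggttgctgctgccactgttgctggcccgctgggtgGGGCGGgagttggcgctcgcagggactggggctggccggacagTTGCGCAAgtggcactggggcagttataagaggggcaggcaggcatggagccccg
Nnat: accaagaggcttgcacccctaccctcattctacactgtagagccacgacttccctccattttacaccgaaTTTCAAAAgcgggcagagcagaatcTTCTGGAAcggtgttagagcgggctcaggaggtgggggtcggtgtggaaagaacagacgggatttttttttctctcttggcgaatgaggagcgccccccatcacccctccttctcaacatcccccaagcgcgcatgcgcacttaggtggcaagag
Apln: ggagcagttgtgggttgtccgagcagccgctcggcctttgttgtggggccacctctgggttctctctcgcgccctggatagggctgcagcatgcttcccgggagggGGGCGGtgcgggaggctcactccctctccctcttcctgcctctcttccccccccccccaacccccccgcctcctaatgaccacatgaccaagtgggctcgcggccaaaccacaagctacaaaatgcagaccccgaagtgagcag
Adipoq: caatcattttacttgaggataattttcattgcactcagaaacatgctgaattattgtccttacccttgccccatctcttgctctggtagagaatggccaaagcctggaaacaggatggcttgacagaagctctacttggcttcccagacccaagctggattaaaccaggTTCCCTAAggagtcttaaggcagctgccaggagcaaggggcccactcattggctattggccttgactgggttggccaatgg

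Of the 10 members, 9 had a promoter entry and Rarres2 had none. Rbp4 had 2 entries, which makes 10 windows. The C/EBP core was found in Lep, from position -55 to -48 before the start, where it matches on both strands. Nnat held it at -180 to -173 and at -155 to -148, Adipoq held it at -81 to -74, and Rbp4 held it in both windows. This core is in 36.8% of all 32851 promoter windows of the same length. A GC box was found in Lep, Apln, Metrnl, Nampt and Rbp4 and is in 32.7% of all windows. The TATA box (TATAAA, in 12.4% of windows) was found in Rbp4 alone, and the hypoxia response core (ACGTG, in 16.6%) in Nampt and Rbp4. An E-box (CACGTG, 6.02%, which contains the hypoxia core), a glucocorticoid receptor core (ACANNNTGT, 5.84%) and an SREBP element (TCACNCCAC, 1.05%) matched 0 of the 10 windows. These are matches of letters within the windows.

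In 3 adipokines the groups differed between the groups at an unadjusted p under 0.05: Nampt was higher in CAC, and Apln and Metrnl were lower. Lep and Nnat were nearly absent in 2 of the 3 CAC libraries and at the CONT level in the third, and Adipoq, Retn and Cfd overlapped between the groups. Nampt was 1 of 10 members that were higher, where 6.31% of the 17296 genes tested were, and Apln and Metrnl were 2 of 10 that were lower, where 6.95% were. The same shares are the background for the counts of each gene list below. By edgeR's quasi-likelihood test with Benjamini-Hochberg adjustment, 0 of 10 members and 0.0% of all genes had an adjusted p under 0.05, while 2294 genes had an unadjusted p under 0.05. DESeq2 gave an adjusted p under 0.05 to 2 members, Apln and Nampt, and to 2.91% of the 33212 genes it tested, which are 965 genes. The groups did not overlap in 2 members. Nampt was higher in every CAC library than in every CONT library, as were 11.8% of all genes tested, and Apln was lower in every CAC library, as were 10.7%. With 3 against 3 libraries an exact permutation test cannot go below a two-sided p of 0.1, the value both genes reached.

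**Figure D1:**
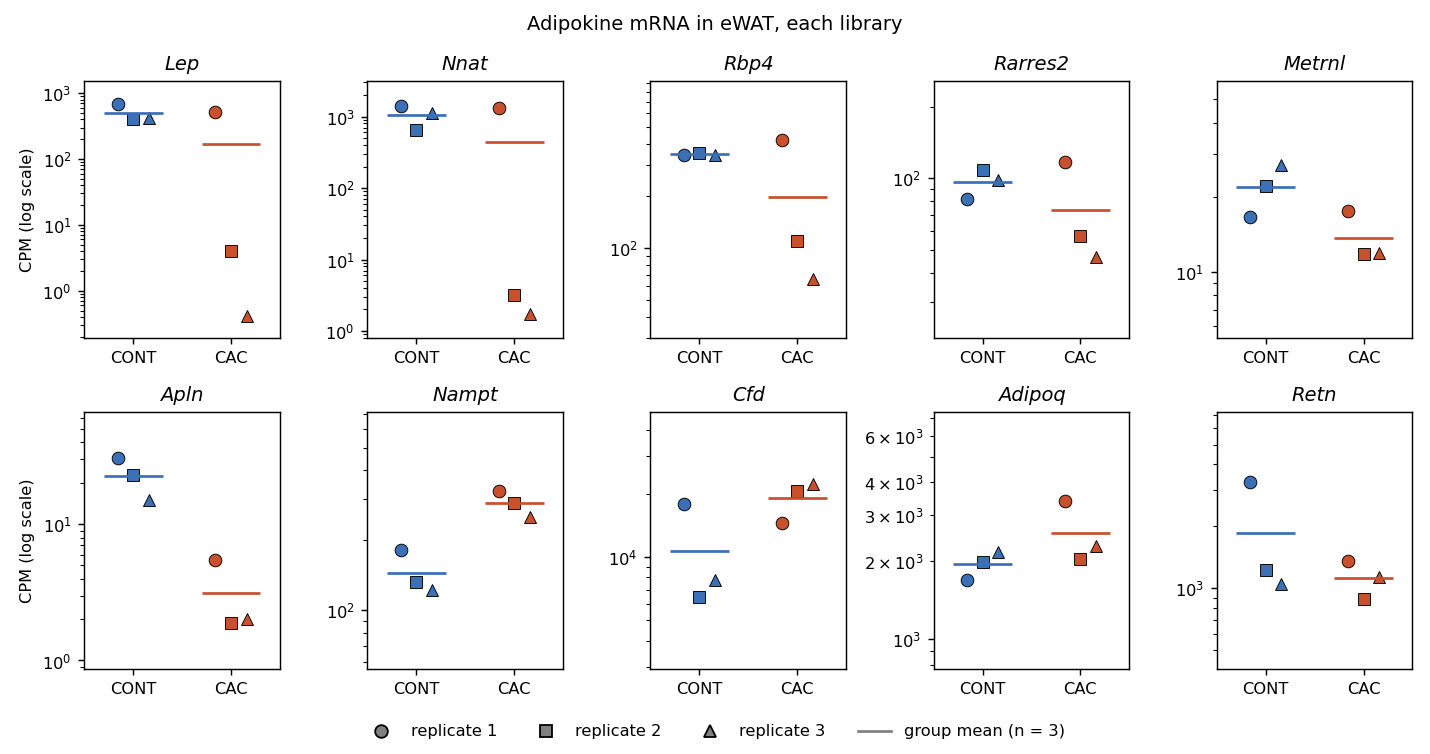
CPM of each adipokine on a log axis, with 1 point per library (circle, square and triangle for replicates 1, 2 and 3) and a bar at the group mean of 3 libraries. Lep and Nnat of CAC replicates 2 and 3 lie at 3.996 CPM and below, while Apln and Nampt are the 2 genes whose groups do not overlap.

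Lep, on chromosome 6 from 29060220 to 29073877 (GRCm38), was at 697, 409 and 414 CPM in CONT replicates 1, 2 and 3. It was at 512, 3.996 and 0.415 CPM in CAC replicates 1, 2 and 3. CAC replicate 1 was inside the CONT range, and the other CAC libraries were far below it, so the groups overlapped. In reads, these are 7820, 9335 and 9154 counts in CONT and 12457, 99 and 11 counts in CAC. The 11 counts are 4.24e-05% of that library (95% Wilson interval 2.37e-05% to 7.60e-05%), and the 12457 counts are 0.0498% (0.0490% to 0.0507%). Such intervals cover counting error only, and they are far narrower than the distance between the CAC libraries.

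The group means of Lep were 507 ± 165 CPM (SD, n = 3) in CONT and 172 ± 294 CPM (SD, n = 3) in CAC. The log2 fold change was -1.56 with a standard error of 1.94 (edgeR's quasi-likelihood test, Benjamini-Hochberg adjusted p = 0.757), which is within the spread between libraries. With the same 6 libraries, limma on log2(FPKM + 1) gave -4.19 with a standard error of 1.71 (unadjusted p = 0.0462, adjusted p = 0.346), and on log2(FPKM + 0.1) it gave -5.29 (unadjusted p = 0.0493). By edgeR the log2 fold change was -0.97 without CAC replicate 2 and -0.97 without CAC replicate 3. Without CAC replicate 1 it was -7.81 with a standard error of 1.26 (edgeR, adjusted p = 0.190, the lowest of a range up to 0.952 over the edgeR and limma alternatives). Such ranges of adjusted p leave out the DESeq2 fits without a library or with a replicate block, whose calls are given apart. In bulk tissue, fewer cells of a type and less RNA per cell cannot be told apart.

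Nnat, an imprinted gene on chromosome 2 from 157560078 to 157562522, was at 1426, 640 and 1136 CPM in CONT and at 1327, 3.23 and 1.74 CPM in CAC replicates 1, 2 and 3. Its CAC libraries split as those of Lep did. Its log2 fold change was -1.27 with a standard error of 2.04 (edgeR, Benjamini-Hochberg adjusted p = 0.822), and -8.71 with a standard error of 0.74 without CAC replicate 1 (edgeR, adjusted p = 0.108, in a range up to 0.965). Without CAC replicate 2 it was -0.67, and without CAC replicate 3 it was -0.67. By limma with all 6 libraries it was -5.02 on log2(FPKM + 1) and -5.58 on log2(FPKM + 0.1), with unadjusted p of 0.0556 and 0.0545. Nnat lies within Blcap, a gene on the opposite strand, and the strand setting of the counting is not given in the sources used here. Per length, Nnat was at 12.6, 8.16 and 13.0 times the FPKM of Blcap in CONT, at 13.2 times in CAC replicate 1, and at 0.0725 and 0.0502 times in CAC replicates 2 and 3. Blcap itself was at 189, 130 and 145 CPM in CONT and at 168, 74.1 and 57.6 CPM in CAC.

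Among 13494 genes compared over the 6 libraries, Nnat was the gene closest in pattern to Lep, with a root mean square difference of 0.69 in centred log2 CPM. D430019H16Rik followed at 1.31 and Cdsn, which encodes corneodesmosin, at 1.70. D430019H16Rik was at 38.1, 27.7 and 21.1 CPM in CONT and at 11.9, 0.848 and 0.0755 CPM in CAC. Cdsn was at 33.0, 49.2 and 55.2 CPM in CONT and at 28.7, 1.29 and 0.680 CPM in CAC. In both genes CAC replicate 1 was the highest CAC library yet below every CONT library, unlike in Lep. Without CAC replicate 1 their log2 fold changes went from -2.76 to -5.92 and from -2.16 to -5.48.

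Rbp4, on chromosome 19 from 38116620 to 38125321, was at 345, 354 and 345 CPM in CONT and at 419, 109 and 65.8 CPM in CAC. CONT was narrow, CAC replicate 1 was above all of it and the other CAC libraries were below all of it. The log2 fold change was -0.82 with a standard error of 0.66 (edgeR, Benjamini-Hochberg adjusted p = 0.611), and -1.95 with a standard error of 0.31 without CAC replicate 1 (adjusted p = 0.184, in a range up to 0.938). Without CAC replicate 2 it was -0.51, and without CAC replicate 3 it was -0.39. By limma with all 6 libraries it was -1.24 on log2(FPKM + 1). Of 13 genes of retinoid handling tested, 0 were higher and 1 was lower at an unadjusted p under 0.05, with a median log2 fold change of -0.02 beside -0.06 over all genes.

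Rarres2, on chromosome 6 from 48569696 to 48572789, showed the same split of the CAC libraries over a smaller range, at 81.5, 108 and 97.9 CPM in CONT and at 116, 56.9 and 46.5 CPM in CAC. Its log2 fold change was -0.39 with a standard error of 0.37 (edgeR, Benjamini-Hochberg adjusted p = 0.666), and -0.84 with a standard error of 0.21 without CAC replicate 1 (adjusted p = 0.278, in a range up to 0.949). Without CAC replicate 2 it was -0.22, and without CAC replicate 3 it was -0.14. The gene overlaps Lrrc61 on the other strand, which had 45 to 432 counts against 914 to 2834 for Rarres2.

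Metrnl, on chromosome 11 from 121701544 to 121716306, was at 16.7, 22.3 and 26.9 CPM in CONT and at 17.6, 11.8 and 11.9 CPM in CAC. CAC replicate 1 lay just above CONT replicate 1, and apart from that pair the CAC libraries were lower. Its log2 fold change was -0.68 with a standard error of 0.28 (edgeR, unadjusted p = 0.0494, Benjamini-Hochberg adjusted p = 0.376). The unadjusted p lay at the threshold and passed it in 2 of the 6 fits that left out 1 library.

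Without CAC replicate 1, every remaining CAC library was below every CONT library in 6 members: Lep, Nnat, Rbp4, Rarres2, Metrnl and Apln. Of all genes tested, 18.8% were in that position. Nampt and Cfd were the 2 members above every CONT library, as were 17.3% of all genes. In the same fit without CAC replicate 1, those 6 members also had an unadjusted p under 0.05 by edgeR, where 5.37% of 19194 genes were lower, and Nampt was the 1 member that was higher, where 6.31% were. DESeq2 then gave an adjusted p under 0.05 to 6 members (Apln, Lep, Nnat, Rarres2, Rbp4 and Nampt) and to 4.48% of its genes. By edgeR the adjusted p was above 0.05 in all 10 members in that fit too.

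**Figure D2:**
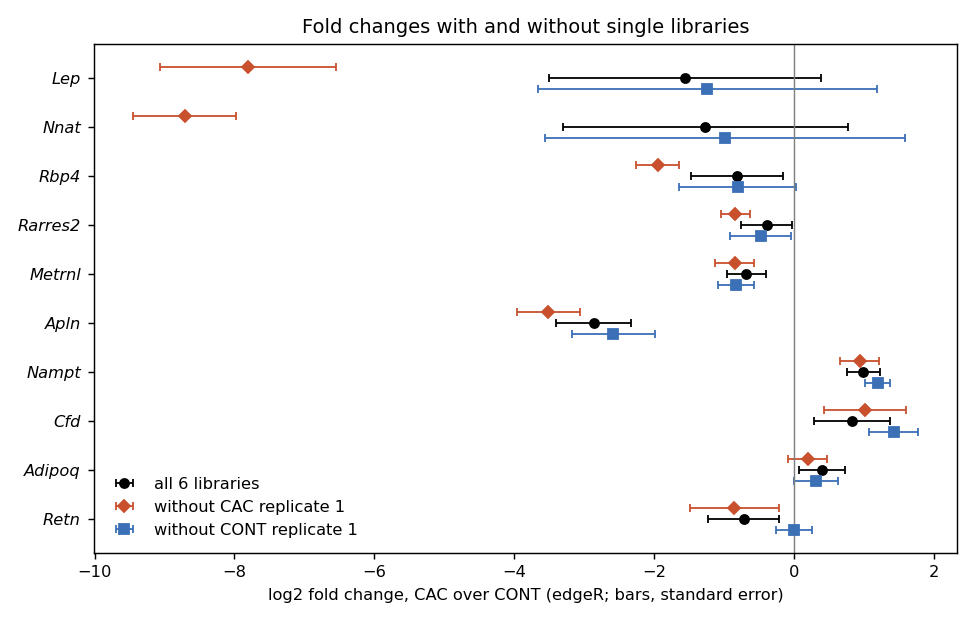
Log2 fold change of CAC over CONT by edgeR for each adipokine, with bars of 1 standard error, for all 6 libraries (black circles), without CAC replicate 1 (red diamonds) and without CONT replicate 1 (blue squares). Lep and Nnat move from -1.56 and -1.27 to -7.81 and -8.71 without CAC replicate 1. All 10 members stay on the same side of 0 in the 3 fits, with Retn at -0.00017 without CONT replicate 1.

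Apln, on chromosome X from 48025146 to 48034853, was at 30.5, 23.0 and 15.0 CPM in CONT and at 5.50, 1.90 and 2.001 CPM in CAC. Every CAC library was below every CONT library, CAC replicate 1 included. The means were 22.8 ± 7.72 CPM (SD, n = 3) and 3.13 ± 2.05 CPM (SD, n = 3). The log2 fold change was -2.86 with a standard error of 0.54 (edgeR, unadjusted p = 0.00134, Benjamini-Hochberg adjusted p = 0.215), place 103 of all genes by p. DESeq2 gave -2.85 and an adjusted p of 5.29e-05, in a range over the alternatives up to 0.684. Leaving out 1 library at a time, the log2 fold change ranged from -3.51 to -2.58.

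The apelin receptor Aplnr, which endothelial cells carry, was also lower. It was at 124, 60.4 and 68.7 CPM in CONT and at 7.19, 37.8 and 16.4 CPM in CAC. Its groups did not overlap and its log2 fold change was -2.04 with a standard error of 0.62 (edgeR, unadjusted p = 0.0147, Benjamini-Hochberg adjusted p = 0.284). Without CONT replicate 1 it was -1.64 and the edgeR unadjusted p was 0.0650, and leaving out each library in turn it ranged from -2.82 to -1.60. Over the edgeR, limma and DESeq2 alternatives the adjusted p of Aplnr ranged from 0.0313 to 0.684. CAC replicate 1 was the highest CAC library for Apln and the lowest for Aplnr. The 6 endothelium markers summed to 1030 to 1815 CPM in CONT and 1360 to 1537 CPM in CAC, and 0 of them had an unadjusted p under 0.05 by edgeR.

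Nampt, on chromosome 12 from 32819545 to 32853349, was at 181, 132 and 122.8 CPM in CONT and at 324, 290 and 253 CPM in CAC. All CAC libraries were above all CONT libraries. The means were 145 ± 31.4 CPM (SD, n = 3) and 289 ± 35.9 CPM (SD, n = 3), and the log2 fold change was 0.99 with a standard error of 0.24. Its edgeR unadjusted p was 0.00477 and its Benjamini-Hochberg adjusted p was 0.239, while the adjusted p by DESeq2 was 0.00527, in a range up to 0.684. Leaving out 1 library at a time, the log2 fold change ranged from 0.90 to 1.20. The RNA gene Gdap10 overlaps Nampt on the same strand and had 1 to 639 counts against 2031 to 7901.

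Of 12 other genes of NAD salvage and use, 1 was higher and 1 was lower at an unadjusted p under 0.05 (6.31% and 6.95% of all genes). Their median log2 fold change was -0.01 beside -0.06 over all genes. Nadk, which makes NADP from NAD, was at 251, 275 and 332 CPM in CONT and at 431, 436 and 407 CPM in CAC (log2 fold change 0.57 ± 0.22, SE). Nmnat2, an NAD-forming enzyme of neurons, was at 1.96, 2.54 and 2.40 CPM in CONT and at 0.616, 1.01 and 1.17 CPM in CAC (-1.30 ± 0.44, SE). The groups did not overlap in either gene. By edgeR the unadjusted p of Nadk was 0.0678 to 0.112 without CONT replicate 2, CAC replicate 2 or CAC replicate 3. That of Nmnat2 was 0.0790 to 0.110 without CONT replicate 2, CONT replicate 3, CAC replicate 1 or CAC replicate 2.

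Nampt is also expressed in neutrophils, and the 5 neutrophil markers moved with the groups. They summed to 4.82 to 62.3 CPM in CONT and to 140 to 1127 CPM in CAC, with 3 of 5 higher and 0 lower at an unadjusted p under 0.05 by edgeR and with Ly6g and Ngp at 0 in CONT replicate 1. CAC replicate 3, the highest in neutrophil markers, was the lowest CAC library for Nampt. The part of these cells in the Nampt result was not tested.

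Cfd was the most abundant member, with 0.743% to 2.27% of all counts in a library. It lies on chromosome 10 from 79890853 to 79892655 and was at 17818, 6453 and 7807 CPM in CONT and at 14516, 20467 and 22183 CPM in CAC. CONT replicate 1, the library rich in mitochondrial reads, was above CAC replicate 1 and made the groups overlap. For the group difference edgeR gave a log2 fold change of 0.83 with a standard error of 0.54 (edgeR, Benjamini-Hochberg adjusted p = 0.524), and 1.43 with a standard error of 0.35 without CONT replicate 1 (adjusted p = 0.237, up to 0.833 over the edgeR and limma alternatives). Without CONT replicate 1, DESeq2 gave Cfd 1.47 and an adjusted p of 6.95e-06, and it called 3 members (Apln, Nampt and Cfd) and 6.24% of all genes. It gave Lep and Nnat no p in that fit. In the same 5 libraries the groups did not overlap in 4 members: Nampt and Cfd were higher, as were 19.5% of all genes, and Apln and Metrnl were lower, as were 21.2%. Of 7 other genes of the alternative complement pathway, in which adipsin cleaves factor B, 1 was higher and 0 were lower at an unadjusted p under 0.05, and their median log2 fold change was -0.46.

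Adipoq, on chromosome 16 from 23146536 to 23158028, was at 1692, 1981 and 2164 CPM in CONT and at 3372, 2031 and 2284 CPM in CAC. CAC replicate 1 was the highest library and the other CAC libraries were near the top of CONT. The log2 fold change was 0.40 with a standard error of 0.33 (edgeR, Benjamini-Hochberg adjusted p = 0.618), within the spread between libraries. Adipoq was therefore not low in the CAC libraries in which Lep was. Per length, Adipoq was at 5.89, 11.8 and 12.7 times the FPKM of Lep in CONT, at 16.01 times in CAC replicate 1, and at 1234 and 13360 times in CAC replicates 2 and 3.

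The 3 genes closest in pattern to Adipoq were Adgrg1 (0.0698), Pdlim5 (0.0720) and Cd302 (0.0742), by the same root mean square difference. Pdlim5, a scaffold protein, was at 65.1, 71.4 and 71.9 CPM in CONT and at 118, 77.1 and 80.9 CPM in CAC. Of 10 genes of adiponectin assembly and release, 0 were higher and 0 were lower at an unadjusted p under 0.05 by edgeR, with a median log2 fold change of -0.08. The smallest p was that of Ero1l, an oxidase that forms disulfide bonds, at 9.90, 23.6 and 27.1 CPM in CONT and 30.4, 26.3 and 29.9 CPM in CAC.

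Retn, on chromosome 8 from 3655770 to 3660110, was at 3277, 1221 and 1051 CPM in CONT and at 1353, 888 and 1130 CPM in CAC. CONT replicate 1 was the high library and the other 5 lay close together. The log2 fold change was -0.72 with a standard error of 0.50 (edgeR, Benjamini-Hochberg adjusted p = 0.555) and -0.00017 with a standard error of 0.26 without CONT replicate 1.

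Of 11 paralogues of adiponectin, resistin, meteorin-like and apelin that were tested, 2 were higher and 3 were lower at an unadjusted p under 0.05 (6.31% and 6.95% of all genes). Their median log2 fold change was -0.53. Retnlg, a resistin-like gene of neutrophils, was at 0.178, 1.01 and 3.30 CPM in CONT and at 14.5, 27.7 and 68.2 CPM in CAC. Its values rank the libraries as the summed neutrophil markers do within both groups. C1qtnf12 was at 66.9, 67.5 and 77.2 CPM in CONT and at 126, 115 and 150 CPM in CAC (0.89 ± 0.18, SE on the log2 scale). C1qtnf6 was at 17.3, 23.7 and 20.4 CPM in CONT and at 10.1, 7.59 and 8.005 CPM in CAC (-1.26 ± 0.25). C1qtnf2 was lower by a log2 fold change of -1.07 ± 0.37, and its edgeR unadjusted p was 0.0733 to 0.0812 without CONT replicate 2, CAC replicate 1 or CAC replicate 3. In these 4 genes the groups did not overlap.

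Compared per length, the order of the median FPKM in CONT was Cfd (6799), Adipoq (1145), Retn (617), Nnat (499), Rbp4 (216), Lep (99.1), Rarres2 (29.6), Nampt (20.8), Metrnl (11.2) and Apln (5.83). The ranges of neighbours in that order overlapped for Adipoq and Retn, for Retn and Nnat, and for Rarres2 and Nampt. In CAC the order was Cfd (18012), Adipoq (1347), Retn (583), Rbp4 (68.1), Nampt (46.6), Rarres2 (17.4), Metrnl (6.09), Nnat (1.43), Lep (0.967) and Apln (0.518). There the ranges overlapped for Rbp4 and Nampt, for Metrnl and Nnat, for Nnat and Lep, and for Lep and Apln. Cfd, Adipoq and Retn thus kept places 1, 2 and 3 in both groups. All 10 members took 1.31% to 1.83% of the counts in CONT and 2.14% to 2.65% in CAC, most of it Cfd.

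The receptors were read beside their ligands. Of 12 adipokine receptors tested, 3 were higher and 1 was lower at an unadjusted p under 0.05 (6.31% and 6.95% of all genes). Their median log2 fold change was 0.16. Lepr, the leptin receptor, was at 2.05, 7.66 and 9.94 CPM in CONT and at 14.3, 26.0 and 34.8 CPM in CAC (1.93 ± 0.61, SE on the log2 scale). CAC replicates 2 and 3, the libraries with hardly any Lep, were the highest for Lepr. Adipor2, an adiponectin receptor, was at 227, 495 and 701 CPM in CONT and at 1010, 1076 and 1383 CPM in CAC (1.28 ± 0.44). Gpr1, a chemerin receptor, was at 1.34, 1.40 and 1.54 CPM in CONT and at 2.01, 2.87 and 5.66 CPM in CAC (1.30 ± 0.51). The groups did not overlap in any of these 3 receptors, which were picked by their p, and 11.8% of all genes tested were likewise higher. Adipor1 and Cdh13 (T-cadherin) overlapped between the groups, with log2 fold changes of 0.07 and 0.23. So did Cmklr1, another chemerin receptor, at -0.06. The edgeR unadjusted p of Lepr was 0.0551 without CAC replicate 3, and that of Adipor2 was 0.0525 to 0.0670 without CONT replicate 2, CAC replicate 2 or CAC replicate 3. Gpr1 passed 0.05 in 1 of the 6 fits that left out 1 library, the one without CAC replicate 1, and leaving out CAC replicate 3 brought its log2 fold change to 0.78.

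**Figure D3:**
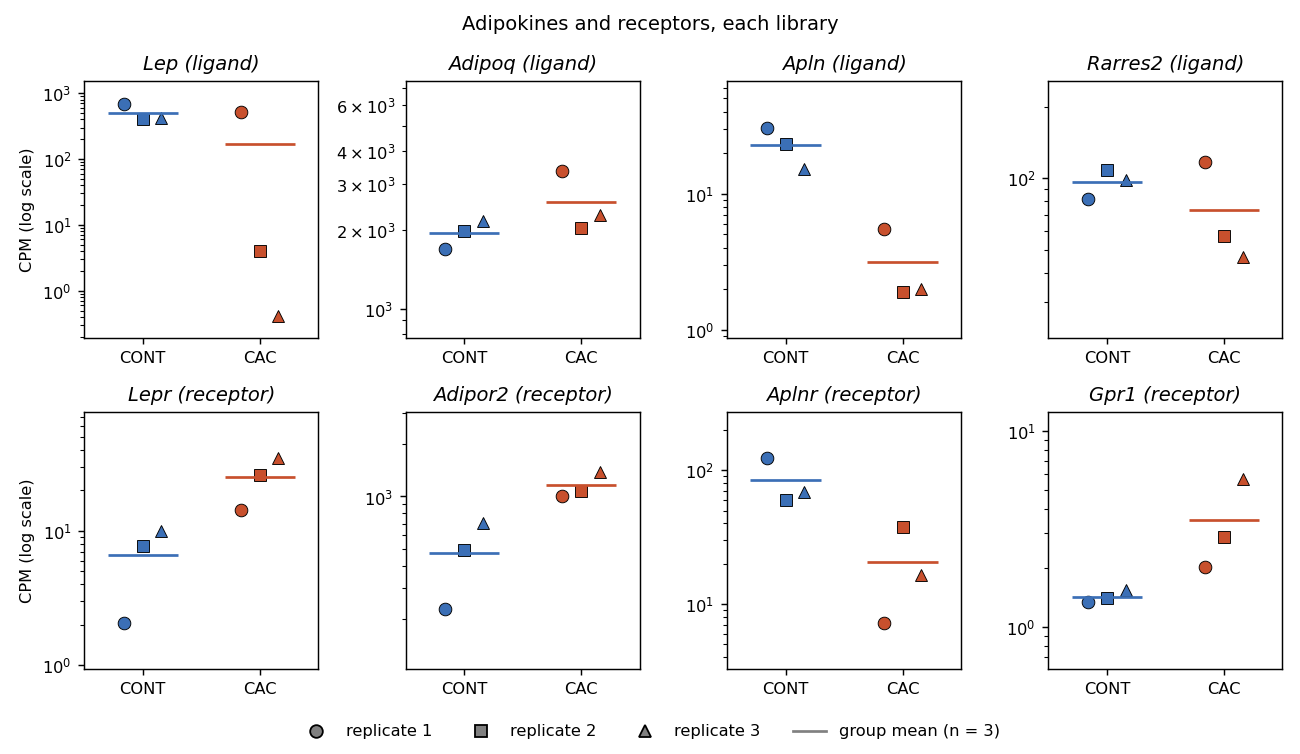
CPM of 4 adipokines (top) and of 1 receptor of each (bottom) on log axes, with 1 point per library and a bar at the group mean of 3 libraries. The receptors shown had an unadjusted p under 0.05 by edgeR. Adipor1, Cdh13 and Cmklr1, not shown, overlapped between the groups. Every CAC library lies above every CONT library for Lepr, Adipor2 and Gpr1 and below for Aplnr, while of the ligands Apln alone has groups that do not overlap.

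Of 7 genes of leptin receptor signalling, 3 were higher and 0 were lower at an unadjusted p under 0.05 (6.31% and 6.95% of all genes). Their median log2 fold change was 0.42. Stat3 was at 149, 156 and 186 CPM in CONT and at 269, 294 and 441 CPM in CAC (1.03 ± 0.27, SE on the log2 scale). Irs2, an insulin receptor substrate, was at 14.3, 52.1 and 71.0 CPM in CONT and at 114, 251 and 152 CPM in CAC (1.91 ± 0.60). Socs3, a feedback inhibitor of cytokine signalling, overlapped between the groups, at 14.6 to 20.6 CPM in CONT and 20.2 to 72.5 CPM in CAC (1.25 ± 0.49). Without CAC replicate 3, the high library, Socs3 was at 0.53 (edgeR, unadjusted p = 0.114), and its p was 0.0551 to 0.120 without any 1 of the CONT libraries. Irs2 had an edgeR unadjusted p of 0.0634 without CAC replicate 2. These genes also serve other cytokines and insulin.

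Of 17 transcription factors of adipocyte genes, 4 were higher and 0 were lower at an unadjusted p under 0.05 (6.31% and 6.95% of all genes). Their median log2 fold change was 0.15. Klf15 was at 71.1, 68.5 and 77.6 CPM in CONT and at 152, 187 and 163 CPM in CAC (1.21 ± 0.18, SE on the log2 scale). Cebpd, a member of the C/EBP family, was at 57.7, 33.9 and 30.3 CPM in CONT and at 127, 119 and 138 CPM in CAC (1.66 ± 0.28). Foxo1 and Sp1, a factor that binds GC boxes, differed by 0.90 ± 0.24 and 0.73 ± 0.26, and the edgeR unadjusted p of Sp1 was 0.0570 to 0.0823 without CONT replicate 2, CAC replicate 2 or CAC replicate 3. In these 4 genes CAC replicate 1 was with the other CAC libraries, above every CONT library, unlike in Lep and Nnat. A link between these levels and the letters in the promoter windows was not tested.

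Of 27 other secreted factors of fat tested, 2 were higher and 8 were lower at an unadjusted p under 0.05 (6.31% and 6.95% of all genes). Their median log2 fold change was -0.34. Agt, which encodes angiotensinogen, was at 200.01, 171 and 199 CPM in CONT and at 519, 553 and 844 CPM in CAC (1.75 ± 0.28, SE on the log2 scale). Fndc5, the precursor of irisin, was at 18.5, 10.6 and 6.37 CPM in CONT and at 2.83, 2.87 and 1.85 CPM in CAC (-2.23 ± 0.48). Tgfb1 and Wisp2 were lower by log2 fold changes of -0.73 ± 0.18 and -1.91 ± 0.55. The groups did not overlap in any of these 4 genes.

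Of 16 imprinted genes other than Nnat, 2 were higher and 1 was lower at an unadjusted p under 0.05 (6.31% and 6.95% of all genes). Their median log2 fold change was -0.72. Peg3 was at 32.2, 42.0 and 54.3 CPM in CONT and at 122.5, 241 and 168 CPM in CAC (2.05 ± 0.33, SE on the log2 scale), opposite in direction to Nnat. Grb10, an adaptor of the insulin receptor, was higher by 0.85 ± 0.18. Ndn was at 73.4, 30.4 and 27.3 CPM in CONT and at 21.8, 10.7 and 7.25 CPM in CAC (-1.72 ± 0.55). CONT replicate 1 was the high library for Ndn, and without it the log2 fold change was -1.11 (edgeR, unadjusted p = 0.0798). The p of Ndn was 0.0748 and 0.0528 without CAC replicates 2 and 3.

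**Figure D4:**
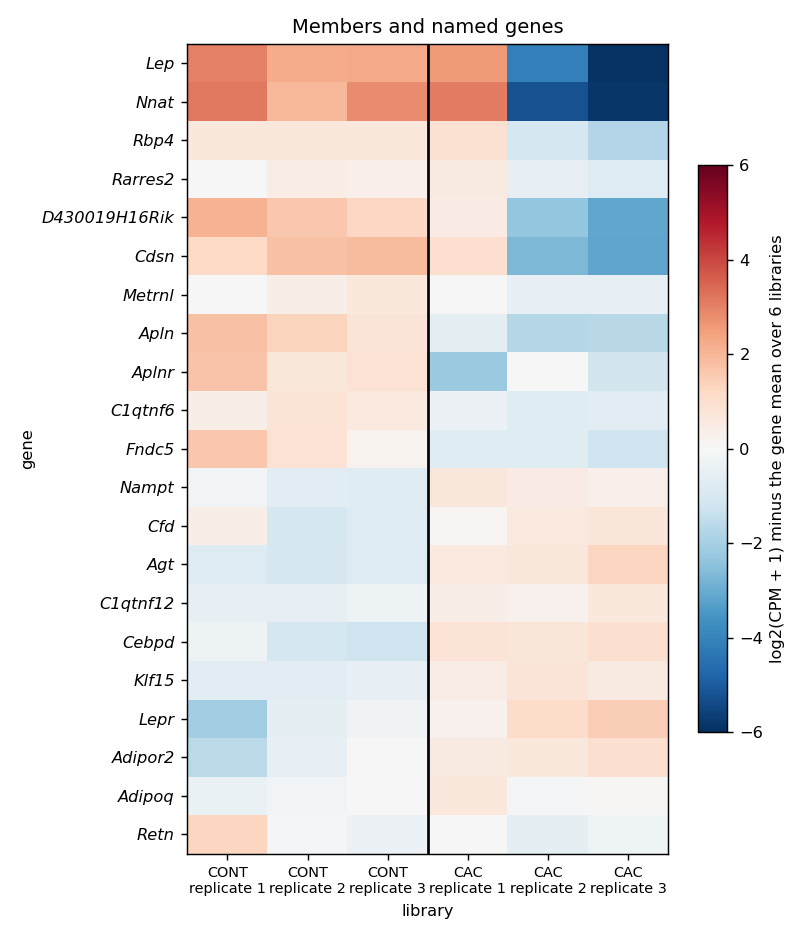
Colour scale of log2(CPM + 1) minus the mean of each gene over the 6 libraries, with genes in rows and libraries in columns. In Lep, Nnat, Rbp4 and Rarres2 the column of CAC replicate 1 has the colour of CONT, while in Apln, Nampt, Cebpd, Klf15 and Agt all 3 CAC columns stand on 1 side.

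Markers of other cells are given beside these results. In addition to the neutrophil markers, the 6 fibroblast markers summed to 1810 to 2320 CPM in CONT and 1329 to 1884 CPM in CAC, with 4 of 6 lower and 0 higher at an unadjusted p under 0.05. Dcn went the other way without overlap, at 973, 780 and 824 CPM in CONT and 1297, 1498 and 1099 CPM in CAC. Its log2 fold change was 0.60 (edgeR, unadjusted p = 0.0615), and that of Pdgfra was -0.07. The 5 B and plasma cell markers summed to 27.5 to 87.9 CPM in CONT and 6.72 to 17.1 CPM in CAC, and the 6 T cell markers to 7.64 to 13.1 and 5.63 to 7.10 CPM. The 6 epididymis markers summed to 156, 2.63 and 10118 CPM in CONT replicates 1, 2 and 3 and to at most 0.680 CPM in CAC. The sums overlapped between groups for macrophages (498 to 1548 and 717 to 1257 CPM), mesothelium (115 to 197 and 69.4 to 209 CPM), skeletal muscle (7.49 to 45.7 and 10.2 to 46.2 CPM) and Schwann cells and nerve (39.7 to 68.7 and 38.9 to 60.1 CPM). The 4 brown adipocyte markers summed to 15.7 to 30.2 CPM in CONT and to 16.2, 73.6 and 140 CPM in CAC replicates 1, 2 and 3, so that the CAC libraries with little Lep and Nnat were above every CONT library and CAC replicate 1 was not. Ucp1, their defining marker, was at 0 to 0.0807 CPM in 5 libraries and at 0.535 CPM in CONT replicate 1. No list had a marker at 0 in every library, and the part of these cells in the adipokine results was not tested.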

How the data were processed

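RNA was measured in eWAT of 3 CAC and 3 CONT mice, and the groups came from the sample labels. The authors isolated poly(A) RNA, mapped reads to GRCm38 (Ensembl release 94) with HISAT2 2.0.5 and obtained gene counts with featureCounts 1.5.0-p3. The strand setting of the counting was not given in the sources used here. The deposited counts are whole reads per gene without normalization. The FPKM values deposited by the authors are these counts per gene length and per 1 size for each library, which was 0.879 to 1.44 times the count total, and were used to compare levels between genes.

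The test was the robust quasi-likelihood test of edgeR 4.0.16 (R 4.3.3) with TMM normalization, after removal of genes with low counts, and Benjamini-Hochberg adjustment covered 17296 genes. Alternatives were DESeq2 1.42.0, limma 3.58.1 on log2(FPKM + 1) and log2(FPKM + 0.1), which understates changes of low genes, RLE and upper-quartile normalization, other filters, no mitochondrial genes, the replicate number as a block, and each library left out in turn. CPM values use the TMM-adjusted library size, on which 1 CPM stood for 11.2 to 26.5 reads. The tests were checked on simulated counts. Replicates are separate mice.

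The members and lists were chosen with earlier results of these data known. Genes named are all members, the genes of each list with an unadjusted p under 0.05 (at most the 4 smallest p, or else the 1 smallest; the adipocyte markers were treated likewise), and the 3 genes closest in pattern to Lep and to Adipoq. The values of 2 genes that this rule names are not reported here. Blcap, Lrrc61 and Gdap10 are named because they overlap members. Outside the rule above, the receptors Adipor1, Cdh13 and Cmklr1 and the cell markers Fabp4, Dcn, Pdgfra, Ly6g, Ngp and Ucp1 are named to show limits. Genes of the lists were picked by p, so groups that do not overlap are no separate support for them. Of all genes tested, 11.8% were higher in every CAC library and 10.7% were lower. Cell marker lists were summed as CPM.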

Additional observations from a re-analysis of the deposited data

How the results depend on the processing

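Over the edgeR and limma alternatives and DESeq2 on all 6 libraries without a block, 167 of 169 fold changes of members kept their direction and their side of an adjusted p of 0.05. The 2 exceptions were Apln (-2.85) and Nampt (1.01) under DESeq2, which passed, so that the count of members with an adjusted p under 0.05 was 2 by DESeq2 in place of 0 by edgeR. In the edgeR and limma alternatives at most 6 of all genes had an adjusted p under 0.05, so keeping that side was nearly fixed beforehand. Size is not part of this count: by edgeR Lep went from -1.56 to -7.81 without CAC replicate 1. For the other named genes, 554 fold changes kept direction and side, and 20 kept direction and passed. By limma on FPKM 4 members had an unadjusted p under 0.05, with Lep joining, beside 2114 of 14962 genes on log2(FPKM + 1), and 2 members did with no filter, and the fold changes of Lep and Nnat were -4.19 to -5.58. DESeq2 without a block gave Lep no p with all 6 libraries. It gave neither Lep nor Nnat a p when any 1 of the CONT libraries was left out, so its counts there cover the other members only. Leaving out 1 library at a time, the members with an unadjusted p under 0.05 by edgeR numbered 2 to 7, those with groups that do not overlap 2 to 8, and those with an adjusted p under 0.05 by DESeq2 1 to 6, with Lep, Nnat, Rbp4 and Rarres2 joining without CAC replicate 1 and Cfd without CONT replicate 1. The high counts of 7, 8 and 6 came without CAC replicate 1. The groups did not overlap in 4 members without CONT replicate 1, where Cfd and Metrnl joined (19.5% of all genes were then higher and 21.2% lower). By DESeq2 Nampt was lost without CONT replicate 2 or without CAC replicate 2, which left 1 member. In the fit with a replicate block, DESeq2 gave 4 members an adjusted p under 0.05 (Apln, Nampt, Lep and Nnat), beside 900 of 34214 genes, and edgeR gave 0, with log2 fold changes of -6.17 for Lep and -6.74 for Nnat. Deviations of same-numbered libraries correlated at 0.31, -0.15 and -0.22. The labels give such libraries only a number in common, and whether they share more was not tested. Retn was at -0.72 with all libraries and -0.00017 without CONT replicate 1 by edgeR, and 0.04 there by DESeq2. Low counts, such as the 11 of Lep in CAC replicate 3, limit the precision of single values, and the spread between mice (common dispersion 0.265) limits all tests.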

Other observations

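The store of fat and its release were not the subject of the comparisons above. Of 15 adipocyte markers, 2 were higher and 0 were lower in CAC at an unadjusted p under 0.05 by edgeR, with a median log2 fold change of -0.16. Pnpla2, the lipase that starts triglyceride breakdown, was at 1718, 1312 and 1916 CPM in CONT and at 4177, 3787 and 4725 CPM in CAC (log2 fold change 1.36 ± 0.32, SE). Pde3b, which ends the cAMP signal under insulin, was at 228, 335 and 397 CPM in CONT and at 848, 502 and 691 CPM in CAC (1.09 ± 0.32). In both genes every CAC library, replicate 1 included, was above every CONT library.

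The following genes were chosen after their values were seen. Adrb3, the beta-3 adrenergic receptor of adipocytes, was at 692, 564 and 680 CPM in CONT and at 602, 142 and 45.1 CPM in CAC replicates 1, 2 and 3. Mest, an imprinted gene whose level follows fat expansion, was at 10.6, 56.2 and 75.8 CPM in CONT and at 48.0, 5.17 and 2.76 CPM in CAC. Sncg, which encodes gamma-synuclein, was at 671, 377 and 443 CPM in CONT and at 291, 15.4 and 9.21 CPM in CAC. In all 3 genes CAC replicate 1 was the highest CAC library, and the difference within CAC was not tested.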
